A study of Homo sapiens with 5 samples.

Results

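LNRII cells given the growth factor TGFB3 for 3 days were compared with LNRII cells given vehicle, across every probe of an Illumina bead array that names 1 gene and had a detection p-value below 0.01 on at least 1 of the 2 arrays. The rule kept 14152 of the 47306 probes on the array, and these cover 10730 of the 20044 genes that have a named probe. The study measured RNA from 5 human prostate cancer cell cultures, 1 array per culture, and its title concerns repression of TGF-beta signalling by the transcription factor FOXA1. LNCaP is an androgen-responsive line derived from a lymph node metastasis of prostate cancer. LNRII cells are LNCaP cells infected with the lentivirus pLenti-cmv-puro-TGFBR2, which carries the type II TGF-beta receptor, and selected with puromycin. Both LNRII cultures were grown in RPMI with 10% FBS and both carry the TGFBR2 virus, the tested one with TGFB3 at 5 ng/ml for 3 days and the control with vehicle for 3 days. The labels give all cultures the genotype WT. The other 3 arrays hold LNCaP cells with a hairpin against FOXA1 and LY2157299, with the FOXA1 hairpin alone, and with the control hairpin shCtr. They are labelled day 10, unlike the 3 days of the LNRII cultures, and shCtr is quoted below as a level only.

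TGF-beta ligands bind a type II receptor, which recruits and phosphorylates a type I receptor. The type I receptor phosphorylates SMAD2 and SMAD3, which enter the nucleus with SMAD4 and act with other factors at target genes, and several of the targets feed back to dampen the pathway. In epithelial cells the pathway is known for arrest of the cell cycle, production of extracellular matrix and loss of epithelial traits. LNCaP cells respond poorly to TGF-beta ligands, and adding TGFBR2 is a known way to make them responsive.

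With 1 array on each side, no test, p-value or standard error can be given for any difference. Levels are normalized log2 intensities, differences are log2 values of TGFB3 minus control, and a gene is called higher or lower with TGFB3 only where it differed by at least 2-fold. A level belongs to its probe, so levels of different genes are not set against each other. The only error available is the disagreement between a pair of probes for the same gene, which gave an SD of 0.22 for a log2 difference read by 1 probe (2222 genes). That SD was 0.27 among the dimmest of 3 groups of second probes and 0.15 among the brightest, and it leaves out the spread between cultures.

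The array of the TGFB3 culture detected 37.0% of all probes and the control array 32.3%, with mean intensities of 310 and 278. The lowest detected level was 4.72 on the TGFB3 array and 5.03 on the control array. Of the 10730 genes, 9247 were detected on both arrays, 1275 with TGFB3 alone and 208 in the control alone. An undetected level was replaced by the lowest detected level of its array where it lay below it, and the difference is then written "at least". For 788 genes, all detected with TGFB3 alone, that bound was under 1-fold and no difference is given, which leaves 9942 genes compared. A gene detected with TGFB3 alone could therefore lie only above 0, and one detected in the control alone only below 0. Counts above and below 0, over all genes and in the lists, partly follow from this rule. The control array's smaller share of detected probes and higher floor move with the count of genes seen on 1 array only, and their part in it was not tested. Luminal prostate markers were detected, 10 in all, among them FOXA1, HOXB13, KLK3, KRT8 and KRT18. Of these 10 only TMPRSS2 was higher and 0 were lower, 8 lay above 0 and 2 below, with a median difference of 0.31. Of the 5 basal markers 4 have a named probe, and none of these was detected on either array. TP63 has no named probe and was not measured. Of the defining markers of other cell types PTPRC, PECAM1, KDR, CHGA and SYP were not detected. VWF, a marker of endothelial cells, read 8.53 with TGFB3 and 7.09 in the control. COL1A1, CDH5 and INSM1 were detected on 1 LNRII array each, near the floor, and CD68 read 8.44 and 7.74.

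In all, 199 of the 9942 genes compared (2.00%) were higher with TGFB3 and 124 (1.25%) were lower, together 3.25%. The counts of every gene list below are to be read beside these shares. The lists were chosen with earlier results of these data known, and a gene in several lists is counted in each. At 4-fold the counts were 30 higher and 10 lower. The middle of the distribution was narrow: 8524 genes (85.7%) stayed within 1.5-fold, the median difference was 0.01, and the 1st and 99th percentiles lay at -1.07 and 1.31. Above 0 lay 51.4% of the genes compared and below 0 lay 48.6%. Of those higher, 23 rest on the control floor, and 18 of those lower rest on the TGFB3 floor. Genes of every brightness contributed, in 3 equal groups of detected genes. The dimmest held 48 higher and 33 lower among 2789 compared. The middle held 91 and 58 among 3576, and the brightest 60 and 33 among 3577. Protein-coding genes made up 194 of the 199 and 118 of the 124.

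**Figure D1:**
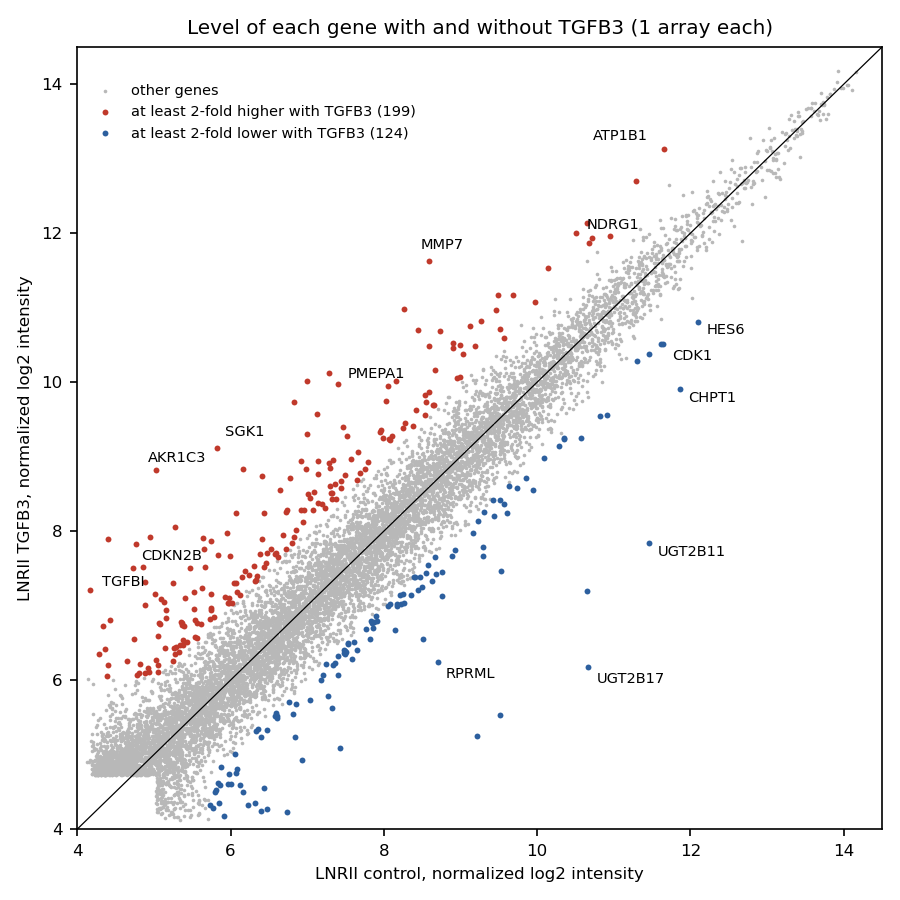
Normalized log2 intensity of each of the 10730 genes with TGFB3 (vertical axis) against the LNRII control (horizontal axis), 1 array each; red points are the 199 genes at least 2-fold higher, blue points the 124 at least 2-fold lower, and the line marks equal levels. AKR1C3, SGK1 and MMP7 stand far above the line, the UGT2B genes far below it, and the blunt lower left corner comes from the detection rule.

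Few ligands and receptors of the pathway could be measured. Of 33 listed ligands, receptors and latency proteins only 12 were detected, and 0 of them were higher or lower, with a median difference of 0.13 against 0.01 over all genes compared. At the 3.25% of all genes past 2-fold, a count of 0 among 12 says nothing particular of them. ITGAV, the integrin subunit that helps to release latent TGF-beta, read 9.94 with TGFB3 and 9.03 in the control, a difference of 0.91. ACVR1, a type I receptor of activins and BMPs, read 8.19 and 7.38. The co-receptor TGFBR3 (betaglycan) read 6.67 with TGFB3 and 7.40 in the control. No probe of TGFB1, TGFB2, TGFB3, TGFBR1 or TGFBR2 was detected on either LNRII array, so the introduced receptor is not checked by these data.

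Further down the pathway, 4 of 21 SMADs and feedback inhibitors were higher and none lower, and the list median was 0.25. PMEPA1, a membrane protein that keeps SMAD2 and SMAD3 from the receptor, read 9.97 with TGFB3 and 7.40 in the control, 5.95-fold higher. A second PMEPA1 probe differed by 2.27. SMAD3, a signal carrier, read 7.51 with TGFB3 and 5.66 in the control, 3.60-fold higher. The inhibitory SMAD6, which acts chiefly in the BMP branch, read 8.91 and 7.28. BAMBI, a decoy receptor without a kinase domain, read 11.94 and 10.72. SMAD7, the other inhibitory SMAD, read 5.54 with TGFB3 and 5.29 in the control, near the floor. A second SMAD7 probe read 5.63 with TGFB3, was not detected in the control and differed by at least 0.60. SMAD4 read 8.30 and 8.11. FKBP1A, which holds the type I receptor inactive, differed by 0.59. PPM1A, a phosphatase of SMAD2 and SMAD3, stood at -0.55 on its brightest probe and at 0.04, 0.12 and 0.22 on the others that both arrays detected. Most of the list therefore stayed within 2-fold, and the 4 higher members were 1 signal carrier and 3 inhibitors.

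The ID genes, direct targets of the BMP branch that block differentiation factors, did not move one way. ID2 read 7.38 with TGFB3 and 6.42 in the control. ID1 read 5.34 and 5.86, and ID3 read 7.25 and 7.64. Of the 8 genes of this list compared, none was higher or lower, which says nothing particular beside 3.25% of all genes compared. The BMP receptors BMPR1B and BMPR2 differed by 0.90 and 0.71.

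Of 47 TGF-beta target genes detected, 41 were compared. Of these, 7 were higher, 0 lower and 33 lay above 0, with a median of 0.29. CDKN2B, the CDK4 and CDK6 inhibitor p15, read 7.50 with TGFB3 and was not detected in the control, at least 5.53-fold higher. TGFBI, a secreted matrix adaptor, read 7.21 with TGFB3 and was not detected in the control or on any LNCaP array, at least 4.53-fold higher. SNAI2, a repressor of epithelial genes, was at least 3.41-fold higher with 6.80. NEDD9, a scaffold of integrin signalling, read 7.24 with TGFB3 and 5.63 in the control. ACTA2, smooth muscle actin, read 8.97 and 7.57, and CCN1, a matricellular protein, 7.46 and 6.18. The list was drawn up with results of these arrays known and is not independent evidence of its own direction.

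The promoters of a SMAD gene and a feedback inhibitor that were higher are shown here because SMAD proteins bind short elements. Each is the RefSeq sequence of GRCh38.p14 from 250 bases before to 50 after the gene's start, 5′ to 3′ on the gene's strand, and positions count the first base of the gene as 0. Capitals mark matches on either strand to CAGAC, the core of the SMAD element, or to the full palindrome GTCTAGAC.
SMAD3, chr15:67065352-67065651, plus strand: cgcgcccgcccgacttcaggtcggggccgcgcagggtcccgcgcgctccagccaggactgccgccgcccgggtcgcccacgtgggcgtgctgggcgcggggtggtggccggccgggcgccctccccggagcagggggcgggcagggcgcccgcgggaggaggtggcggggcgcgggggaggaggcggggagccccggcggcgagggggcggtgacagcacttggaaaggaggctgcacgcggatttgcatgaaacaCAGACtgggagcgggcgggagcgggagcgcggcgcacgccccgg
PMEPA1, chr20:57711423-57711722, minus strand: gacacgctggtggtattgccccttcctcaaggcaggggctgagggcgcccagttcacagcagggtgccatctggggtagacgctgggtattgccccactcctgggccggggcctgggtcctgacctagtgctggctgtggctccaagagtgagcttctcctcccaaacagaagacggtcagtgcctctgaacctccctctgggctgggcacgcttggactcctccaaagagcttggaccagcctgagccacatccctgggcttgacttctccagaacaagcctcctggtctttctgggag
The SMAD3 window holds 1 CAGAC, at bases 6 to 10, and the PMEPA1 window has no capitals because neither motif was found in it. Among 27305 promoters of the same length 45.0% hold CAGAC and 0.201% the palindrome. Of 36 promoters of detected TGF-beta target genes 44.4% were positive for CAGAC, and 10 of 20 promoters of the SMAD and inhibitor list held it. The palindrome was found in 0 of the 36 and 1 of the 20. Near the gene start, CAGAC was thus about as frequent in these lists as in promoters at large.

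The matrix genes compared and the enzymes that act on them lay mostly above 0, a count that the detection rule favours. Of 34 collagens, laminins and other matrix proteins detected, 24 were compared. The rest were detected with TGFB3 alone and have no difference given. Among those compared 4 were higher, 0 lower and 21 above 0, with a median of 0.38. MATN2, matrilin-2, read 7.82 with TGFB3 and was not detected in the control, at least 6.93-fold higher. LAMB3, the beta 3 chain of laminin-332, read 7.01 with TGFB3 and was not detected in the control, at least 3.95-fold higher. COL18A1, the basement membrane collagen that yields endostatin, read 7.03 with TGFB3 and 5.98 in the control. LAMA1 was on the other side of 0, with 5.49 and 6.26.

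Of 28 matrix proteases and inhibitors detected, 25 were compared. Of these, 4 were higher, 0 lower and 23 above 0, with a median of 0.39. MMP7, matrilysin, read 11.62 with TGFB3 and 8.59 in the control, 8.20-fold higher, and its second probe differed by 2.96. MMP10, stromelysin-2, read 7.16 with TGFB3, was not detected in the control or on any LNCaP array, and was at least 4.37-fold higher. SERPINI1 (neuroserpin) read 7.57 and 6.46, but its second probe differed by only 0.58. The prostate surface protease TMPRSS2 read 11.96 and 10.95. The inhibitor TIMP2 fell just short of 2-fold, at 0.96. Integrins had 0 of 9 members higher or lower, a count that says nothing particular beside 3.25% of all genes compared. ITGB5 stood at 0.78 on its brightest probe and at 1.02 on its second.

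Of 15 secreted acute phase and clotting proteins 6 were higher and 1 was lower, with a median of 0.47. Among all genes compared 2.00% were higher and 1.25% lower. Coagulation factor F5 read 9.73 with TGFB3 and 6.83 in the control, 7.51-fold higher. SERPINA3, antichymotrypsin, read 7.92 with TGFB3 and was not detected in the control, at least 7.42-fold higher. ORM1, an acid glycoprotein, read 6.75 and 5.08, and its near copy ORM2 read 6.16 with TGFB3 and was not detected in the control. Whether ORM1 and ORM2 are separate readings could not be checked. Complement factor CFB read 6.58 and 5.54, and SAA1, serum amyloid A, 6.57 and 5.57. TFPI, which inhibits the start of clotting, was lower, with 9.54 with TGFB3 and 10.83 in the control.

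Junction genes and mesenchymal markers, by which epithelial and mesenchymal cells are told apart, were tallied next. Of 34 epithelial junction and identity genes 0 were higher, 1 was lower and 23 lay above 0, with a median of 0.12. The lower gene was CDH26, a cadherin, with 5.09 with TGFB3 and 7.43 in the control, 5.03-fold lower. CDH1, E-cadherin, read 11.68 and 11.23. The epithelial regulator GRHL2 read 7.91 and 6.99 and the junction protein JUP 9.31 and 8.60, while TJP1 (ZO-1) read 8.72 with TGFB3 and 9.34 in the control. Of 8 EMT factors and mesenchymal markers compared, SNAI2 was higher and FOXC2 was lower, with 5.23 and 6.84. Vimentin (VIM) read 7.79 with TGFB3 and 7.78 in the control. SNAI1, ZEB1, ZEB2 and CDH2 were not detected on either array.

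On their brighter probes the 5 keratins compared lay above 0, and 2 were higher. KRT80, a filament protein of differentiating epithelia, read 7.87 with TGFB3 and 5.75 in the control, 4.35-fold higher. KRT19, a simple epithelial keratin, read 7.94 and 6.68, and the luminal keratin KRT8 differed by 0.55. KRT18, its partner, stood at 0.35 on its brighter probe and at -0.85 on its second, so its direction is not settled. Of 44 actin cytoskeleton genes 5 were higher, 0 lower and 37 above 0, with a median of 0.31. Besides ACTA2 these were RDX (radixin, which ties actin to the membrane; 10.53 with TGFB3 and 8.90 in the control), RND3 (a small GTPase that loosens actin fibres; 6.59 and 5.05), CAP2 (an actin-binding protein; 10.49 and 9.19) and FHL2 (a LIM-domain cofactor; 7.38 and 6.15). The radixin relative MSN, moesin, stood at 0.95, and ANLN, the anillin of the dividing cell's contractile ring, at -0.87.

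Cell cycle genes formed the largest group on the lower side. Of 110 G2/M and mitosis genes compared, 23 were lower, 0 higher and 108 lay below 0, against 1.25% lower and 48.6% below 0 among all genes compared, with a median of -0.82. The other two lay at most 0.25 above 0. The cyclin-dependent kinase CDK1 read 10.52 with TGFB3 and 11.62 in the control, 2.15-fold lower, and its second probe differed by -1.18. CCNA2, cyclin A2, read 8.14 and 9.23. FOXM1, a transcription factor of mitotic genes, read 6.50 and 7.53. AURKA and AURKB, the Aurora kinases of spindle and chromosome segregation, read 8.26 and 7.14 with TGFB3, against 9.31 and 8.21 in the control. The mitotic kinase PBK read 7.13 and 8.76, 3.10-fold lower, and CEP55, needed for the last cut between daughter cells, 8.21 and 9.44.

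The kinetochore and checkpoint genes NUF2 (-1.18), SPC25 (-1.14), SGO1 (-1.14), BUB1B (-1.04) and BUB1 (-1.02) were lower by nearly the same amount. PTTG1, the securin, read 10.51 with TGFB3 and 11.64 in the control. PTTG3P, its transcribed pseudogene, read 9.56 and 10.92, and the similar sequences mean that the readings may not be separate. The near-identical copies FAM72A, FAM72B and FAM72D, at -1.27, -1.95 and -1.31, are uncertain as single genes for the same reason.

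Of 60 G1/S and DNA replication genes 4 were lower, 0 higher and 57 lay below 0, with a median of -0.54. TK1, thymidine kinase, read 8.36 with TGFB3 and 9.57 in the control. CDC45, part of the replicative helicase, read 8.99 and 10.08, RRM2, a subunit of ribonucleotide reductase, 6.86 and 7.90, and DSCC1, of the clamp loader of sister chromatid cohesion, 7.39 and 8.39. MCM10 (-0.96), RMI2 (-0.90) and POLE2 (-0.83) came next. Among 31 CDK inhibitors and members of the RB and MYC families, CDKN2B was higher and CDKN3, a phosphatase of cyclin-dependent kinases whose mRNA is itself cyclic, was lower, with 8.55 and 9.94. CDKN1A (p21) read 11.66 and 11.42. MYC read 10.17 with TGFB3 and 10.83 in the control, E2F2 8.10 and 8.96, and RBL1 (p107) 5.11 and 5.85. Fewer dividing cells and less of each mRNA per cell cannot be told apart in bulk RNA, here and for every gene group below.

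The promoters of a pair of the lower mitotic genes are shown because genes of this phase commonly share a CCAAT box and a cell cycle homology region, the element bound by the complex that represses them in resting cells. Capitals mark CCAAT, and TTTGAA or TTCGAA, on either strand.
CEP55, chr10:93496362-93496661, plus strand: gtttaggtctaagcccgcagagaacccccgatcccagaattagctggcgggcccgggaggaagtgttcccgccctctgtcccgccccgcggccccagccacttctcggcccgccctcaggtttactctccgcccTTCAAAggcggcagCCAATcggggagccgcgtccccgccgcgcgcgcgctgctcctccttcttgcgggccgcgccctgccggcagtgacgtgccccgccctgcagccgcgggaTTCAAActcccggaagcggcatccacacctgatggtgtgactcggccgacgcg
CKAP2L, chr2:112764560-112764859, minus strand: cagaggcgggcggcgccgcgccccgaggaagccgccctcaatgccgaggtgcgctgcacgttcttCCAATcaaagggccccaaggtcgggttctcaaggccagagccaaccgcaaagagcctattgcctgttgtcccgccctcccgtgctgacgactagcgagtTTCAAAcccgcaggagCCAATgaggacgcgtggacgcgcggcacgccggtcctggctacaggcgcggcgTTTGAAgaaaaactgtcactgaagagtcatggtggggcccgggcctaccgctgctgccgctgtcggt
The CEP55 window holds a CCAAT at bases -102 to -98 and a TTTGAA on the opposite strand at -116 to -111 and at -3 to 2. In CKAP2L, a gene of the mitotic spindle, CCAAT lies at -185 to -181 and at -70 to -66, and TTTGAA at -17 to -12 and, on the opposite strand, at -86 to -81. No match overlaps another in these windows. TTTGAA was found in 56 of the 90 available promoters of detected G2/M genes (62.2%), in 3 of 50 promoters of G1/S genes (6.0%) and in 15.4% of all 27305. CCAAT was found in 70.0%, 58.0% and 35.7% of them. CCAAT together with TTTGAA or TTCGAA was found in 48 of the 90 G2/M promoters (53.3%), against 6.58% of all. These shares describe the list, whose members were chosen by their phase.

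Histone genes, by contrast, had a median above 0. Of 21 compared, 3 were higher and none lower, and the list median was 0.38. H2AC18 read 10.82 with TGFB3 and 9.27 in the control, H2BC21 9.35 and 7.96, and H2AC6 8.36 and 7.19. H2BC5, H4C8 and H2AJ lay just short of 2-fold, at 0.98, 0.96 and 0.96, and H2AX, the variant that marks DNA breaks, read 6.65 and 7.60. Histone genes within a cluster have related sequences, so single members are uncertain.

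**Figure D2:**
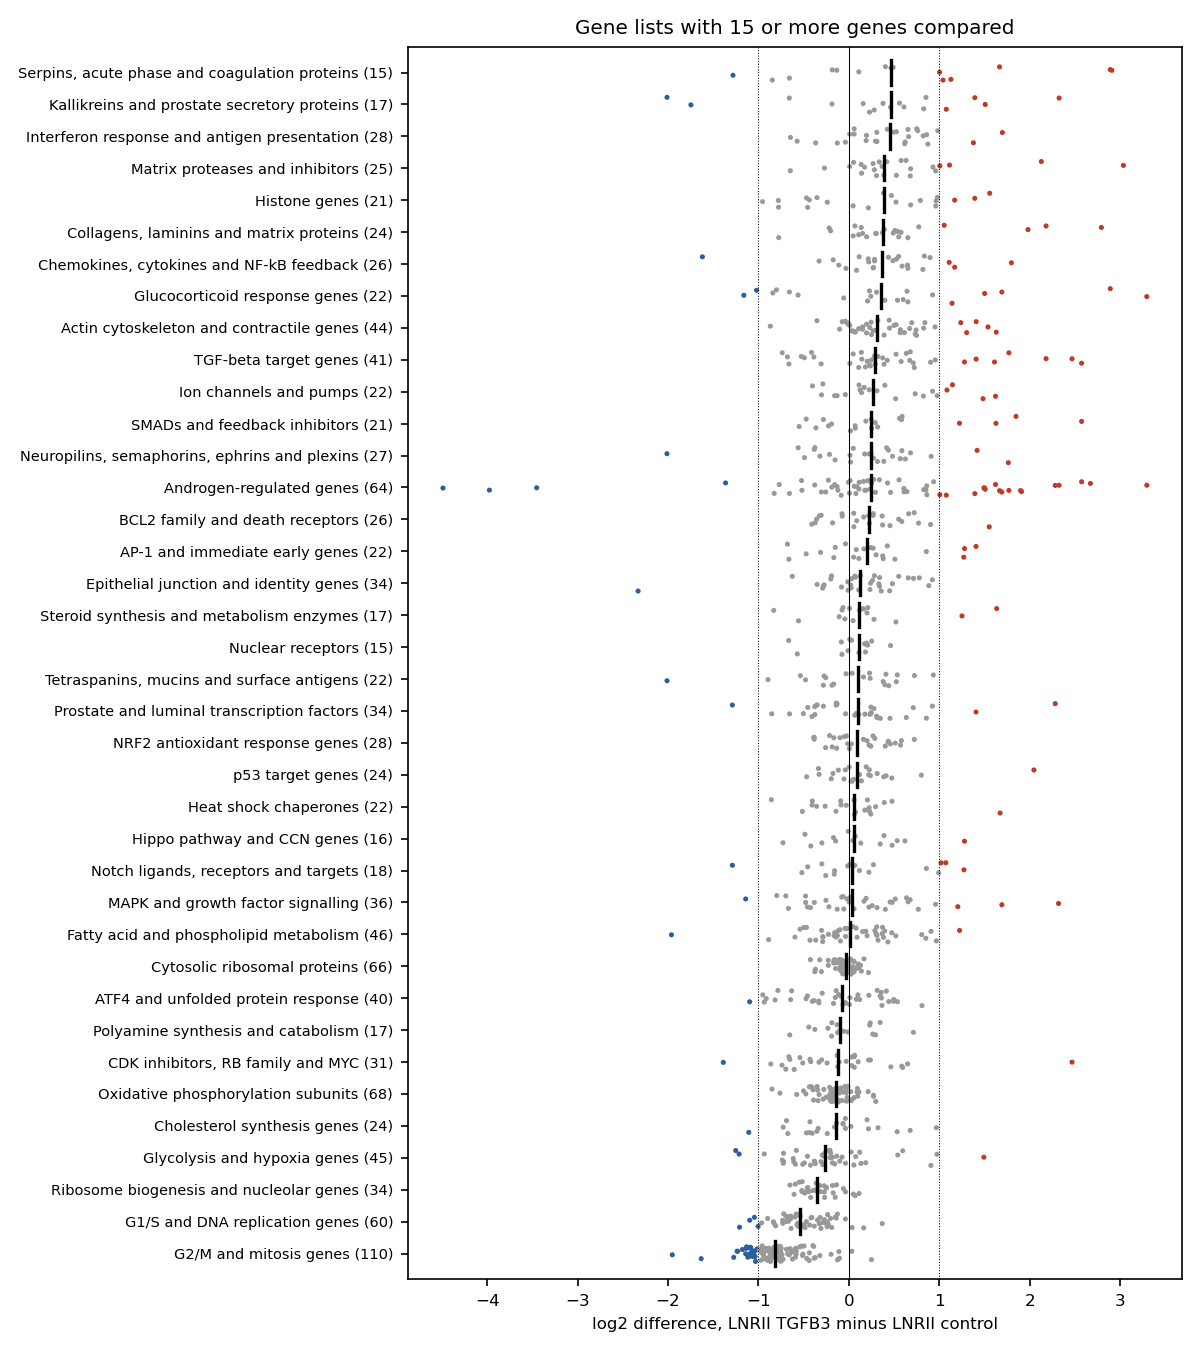
log2 difference (TGFB3 minus LNRII control) of every compared gene in the lists with 15 or more such genes, whose number stands in parentheses; each point is 1 gene, red at least 2-fold higher, blue at least 2-fold lower, the bar is the list's median and dotted lines mark 2-fold. The G2/M list sits furthest left with a median of -0.82, followed by the G1/S list at -0.54, and the serpin and acute phase list furthest right at 0.47.

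The largest single differences were those of enzymes that handle steroids. AKR1C3, a reductase that forms testosterone from androstenedione, read 8.82 with TGFB3 and 5.03, the detection floor, in the control, 13.8-fold higher. AKR1C4 read 10.02 and 6.99, and AKR1C2, which inactivates dihydrotestosterone, 10.98 and 8.27. The other reductases of that list stood apart from these, with AKR1D1 at 0.25, AKR7A3 at 0.24 and AKR7A2 at 0.10. The UGT2B enzymes, which attach glucuronic acid to androgens and other compounds, supplied the 5 largest decreases. UGT2B17 read 6.18 with TGFB3 and 10.67 in the control, 22.4-fold lower, and UGT2B11 7.84 and 11.46. Second probes gave -4.44 for UGT2B17 and -3.98 for UGT2B11. UGT2B15 read 5.54 and 9.51, UGT2B10 5.25 and 9.21, and UGT2B28 7.20 and 10.65. UGDH, which makes the glucuronic acid donor, read 9.79 with TGFB3 and 9.87 in the control. Members of both families are close copies, and a probe may read more than 1 of them. Of the UGT1A genes UGT1A6 was higher (6.43 and 5.26) and UGT1A1 stood at -0.48. Of 17 further steroid enzymes CYP3A5, which oxidises testosterone among many substrates (8.77 with TGFB3 and 7.14 in the control), and HSD17B11 (9.24 and 7.99) were higher, and HSD17B8 stood at -0.83.

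Of 64 androgen-regulated genes 17 were higher, 4 lower and 45 above 0, with a median of 0.24. Among all genes compared 2.00% were higher and 1.25% lower. The higher members are partly those of other lists, among them PMEPA1, SNAI2, SGK1, ERRFI1, TSC22D3, ORM1 and TMPRSS2, so this count is not a separate result. AZGP1, the zinc-alpha-2-glycoprotein of prostate secretions, read 8.74 with TGFB3 and 6.41 in the control, 5.01-fold higher. PTGER4, a receptor of prostaglandin E2, read 8.83 and 6.16. NDRG1, a differentiation gene that hypoxia also induces, was 2.81-fold higher. ALDH1A3, which makes retinoic acid, read 11.53 and 10.14, and KLK4, a kallikrein protease, 10.07 and 8.99. MAF, a transcription factor, read 7.31 with TGFB3 and was not detected in the control. KLK3, which encodes prostate-specific antigen, read 7.44 with TGFB3 and 6.61 in the control. KLK2, its relative, stood at 0.46, and FKBP5, a chaperone of steroid receptors, read 10.30 and 9.65. The 4 lower members were UGT2B17, UGT2B15, UGT2B28 and DDC, the aromatic amino acid decarboxylase, with 8.24 and 9.60. SLC45A3, a prostate membrane transporter, stood at -0.66.

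Of 21 kallikreins and prostate secretory proteins detected, 17 were compared. Of these, 4 were higher, 2 lower and 13 above 0, with a median of 0.46. Besides AZGP1 and KLK4, AGR2, a disulfide isomerase of mucus-producing cells, read 10.97 with TGFB3 and 9.46 in the control, and PIP, a secretory protein, read 6.42 with TGFB3 and was not detected in the control. TSPAN8, a tetraspanin, read 4.92 and 6.93, and KLK10 was not detected with TGFB3 against 6.47 in the control. Among 34 prostate and luminal transcription factors MAF and KLF4 (7.15 and 5.75) were higher and HES6, a HES-family factor, was lower, with 10.81 with TGFB3 and 12.10 in the control. FOXA1 read 11.92 and 11.81, and HOXB13 8.65 and 8.37.

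SGK1, a kinase induced by glucocorticoids and by TGF-beta that regulates ion transport, read 9.11 with TGFB3 and 5.82 in the control, 9.81-fold higher, and its second probe differed by 3.25. It belongs to a list of 22 glucocorticoid response genes of which 5 were higher and 2 lower, and the list median was 0.35. The other higher members were SERPINA3, ERRFI1 (an inhibitor of the EGF receptor; 11.18 with TGFB3 and 9.48 in the control), TSC22D3 (10.16 and 8.66) and ZBTB16 (8.93 and 7.79). The repressor BCL6 (8.58 and 9.74) and the metallothionein MT1X (10.29 and 11.31) were lower. FKBP5, counted above, and SCNN1G, a sodium channel subunit (6.09 and 5.16), did not reach 2-fold.

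Genes of the membrane and of signalling supplied further differences. Of 22 ion channels and pumps 4 were higher and 0 lower: TRPM8, the cold channel of prostate epithelium (8.96 with TGFB3 and 7.33 in the control), ATP1B1, the beta subunit of the sodium pump (13.14 and 11.65), the calcium channel TRPV6 (9.23 and 8.08) and CACNB3 (8.83 and 7.75). RGS2, a brake on G-protein signalling, read 9.31 and 6.99, 4.99-fold higher. S100A10 and its partner ANXA2, which together bind plasminogen activators at the cell surface, were both higher. S100A10 read 9.40 with TGFB3 and 7.46 in the control, and ANXA2 read 6.55 with TGFB3 and was not detected in the control. NRP1, a co-receptor for semaphorins and VEGF, read 9.28 and 7.52, but its second probe differed by only 0.17. SEMA3C read 8.45 and 7.03, and SEMA3D was not detected with TGFB3 against 6.74 in the control.

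Of the Notch genes, JAG1, a ligand (6.81 with TGFB3 and 5.54 in the control), LFNG, which modifies the receptor's sugars (8.31 and 7.24), and HES2 (7.04 and 6.02) were higher, HES6 was lower, and NOTCH3 stood at 0.99. Of 26 chemokine, cytokine and NF-kB genes 3 were higher, 1 lower and 21 above 0, with a median of 0.36. They were the cytokine IL32 (8.94 and 7.15), STAT3 (9.27 and 8.10) and the scavenging receptor ACKR3 (11.08 and 9.97), and the lower gene was the chemokine CCL20, with 7.67 with TGFB3 and 9.29 in the control. Of 33 interferon and antigen presentation genes detected, 28 were compared. Of these, 23 lay above 0, with a median of 0.46, and GBP2 (6.77 and 5.07) and ISG20 (9.33 and 7.96) were higher. IRF9, TAPBP and IFI35 stood at 0.98, 0.87 and 0.86. TUBB3, a tubulin of neurons that epithelial tumours can also carry, read 9.57 and 7.13, 5.43-fold higher, and STMN3, a regulator of microtubules, 7.15 and 6.12.

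Of 66 cytosolic ribosomal protein genes 0 were higher or lower, with a median of -0.03 and a range of -0.43 to 0.22. Of 34 ribosome biogenesis and nucleolar genes 31 lay below 0, with a median of -0.35, and none reached 2-fold, NCL (nucleolin) being at -0.52 and BOP1 at -0.61. Of 68 oxidative phosphorylation subunits 55 lay below 0, with a median of -0.14. ATP5MC1 was the lowest, at -0.85 on its brighter probe and at -1.18 on its second. Glycolysis and hypoxia genes had a median of -0.27 over 45 genes, of which 3 were past 2-fold, against 3.25% of all genes compared. HK2, the hexokinase of the first glycolytic step (7.14 with TGFB3 and 8.35 in the control), and ANKRD37 (7.42 and 8.67) were lower in that list and NDRG1 was higher. Of 40 ATF4 and unfolded protein response genes, the mitochondrial folate enzyme MTHFD2 was lower, with 8.42 and 9.52, and DDIT3 (CHOP) and ASNS stood at -0.91 and -0.78. INSIG1, which restrains sterol synthesis, was lower, with 9.24 and 10.35, as 1 of 24 cholesterol genes. CHPT1, an enzyme of phosphatidylcholine synthesis, read 9.90 with TGFB3 and 11.87 in the control, 3.90-fold lower, and ACSL5, which activates fatty acids, read 6.25 with TGFB3 and was not detected in the control.

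Single higher members of further lists were PLK2, a p53-induced kinase (7.51 and 5.47), BIK, a promoter of cell death (8.29 and 6.74), and CRYAB, a small heat shock protein (6.83 and 5.16). Single lower members were STC2, stanniocalcin (7.39 and 8.40), EGF (not detected with TGFB3, 5.87 in the control) and TRIM49D1 (6.36 and 7.48), a gene with close copies. Of 14 WNT, 28 NRF2, 17 polyamine and 15 nuclear receptor genes compared, 0 were higher or lower. With 3.25% of all genes compared past 2-fold, counts of 0 in lists of this size say nothing particular of them. In all, 38 of the 52 lists had a median above 0 and 14 below. Without background correction every list median lay nearer to 0, and 26 moved by over 1.5 times, among them that of the TGF-beta targets, to 0.15. Together the lists held 78 genes that were higher and 52 that were lower, leaving 121 higher and 72 lower genes outside them.

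**Figure D3:**
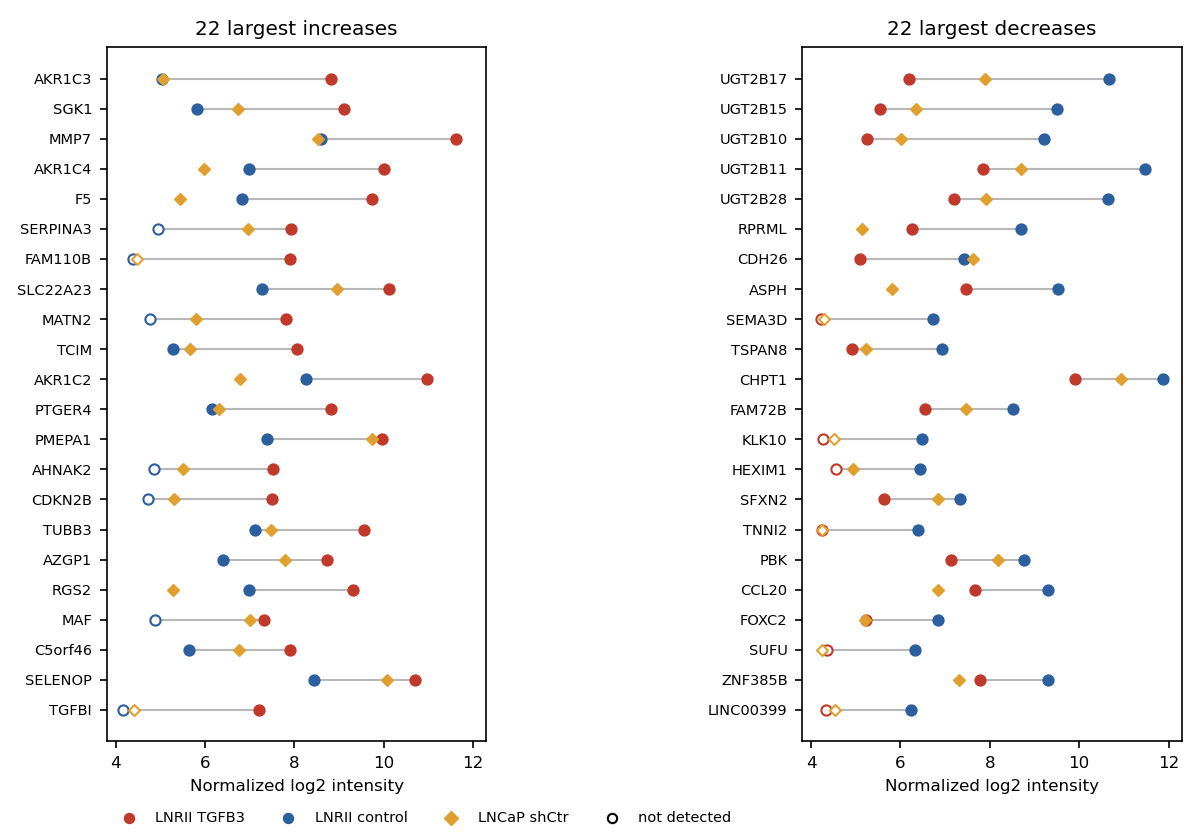
Normalized log2 intensity of the 22 genes with the largest increase (left) and the largest decrease (right), on the arrays of LNRII with TGFB3 (red), LNRII control (blue) and LNCaP with the control hairpin shCtr (orange diamond), 1 array each; open symbols were not detected. The shCtr value lies near the LNRII control for AKR1C3 and MMP7, near TGFB3 for PMEPA1, and nearer to TGFB3 for the 5 UGT2B genes.

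Several of the largest differences belong to genes outside the lists. SLC22A23, a solute carrier of unknown substrate, read 10.12 with TGFB3 and 7.29 in the control, 7.15-fold higher, and its second probe differed by 1.62. FAM110B read 7.89 with TGFB3 and was not detected in the control, at least 7.27-fold higher. TCIM, which was first described in thyroid cancer, read 8.05 and 5.28, and SELENOP, the selenium carrier of plasma, 10.70 and 8.45. MME, neprilysin, a surface peptidase of luminal prostate cells, read 10.68 and 8.73, and OR51E2, an olfactory receptor known from prostate, 7.05 and 5.13. On the other side RPRML read 6.25 with TGFB3 and 8.70 in the control, 5.49-fold lower, and ASPH, a hydroxylase of EGF-like domains, 7.46 and 9.53. NUP93, a nuclear pore scaffold, read 9.25 and 10.57, and POLR3G, a subunit of RNA polymerase III, 6.68 and 8.15, with a second probe at -0.38.

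Among noncoding genes, which were picked out after their values were seen, 4 of 142 long noncoding RNAs were higher and 2 lower, near the shares of 2.00% and 1.25% over all genes compared. LINC00623 read 8.94 with TGFB3 and 6.92 in the control, and SNHG11, a host of small nucleolar RNAs, 8.24 and 6.43. Of 90 small nucleolar RNA genes 0 were higher and 3 lower: SNORD96A (6.71 and 7.86), SNORD110 (4.83 and 5.87) and SNORD16 (8.42 and 9.43). None of 16 microRNA genes compared was higher or lower, which says nothing particular beside 3.25% of all genes compared.

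The LNCaP shCtr array, from day 10 cells without the receptor virus, gives a further reading of each level. PMEPA1 read 9.74 there, beside 9.97 in LNRII with TGFB3 and 7.40 in the LNRII control. UGT2B17 read 7.90 there, beside 6.18 and 10.67, and F5 read 5.44, beside 9.73 and 6.83. MMP7 read 8.52 there, beside 11.62 and 8.59. ID1 and ID3 read 9.35 and 9.71 there, above both LNRII arrays. Also above both were ACTA2 (10.41) and KLK4 (11.47), which were counted as higher with TGFB3. ASPH read 5.80 there, below both LNRII arrays, and AKR1C3 read 5.06, near the LNRII control. Of the 23 higher genes that were not detected in the LNRII control, 13 were detected on the shCtr array and 3 (MMP10, RECK and TGFBI) on no LNCaP array. Of the 18 lower genes that were not detected with TGFB3, 14 were detected on no LNCaP array either, so the LNRII control array alone read them above background, among them KLK10, SEMA3D, TNNI2, SUFU and MARK4. With 1 control culture, an unusual control culture and an effect of TGFB3 cannot be told apart for these genes or for any other.

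A pair of probes could be set side by side for 2222 genes. Of 41 genes higher on the brighter probe, 28 were also 2-fold higher on the second and 35 at least 1.5-fold higher. Of 27 lower genes, 14 were 2-fold lower on the second probe and 23 at least 1.5-fold lower. The second probe lay on the other side of 0 for LDAF1 (1.01 and -0.12), APOBEC3F (1.07 and -0.08), TOM1L2 (1.03 and -0.10) and CLCC1 (-1.31 and 0.36), which are named because the probes disagreed.

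**Figure D4:**
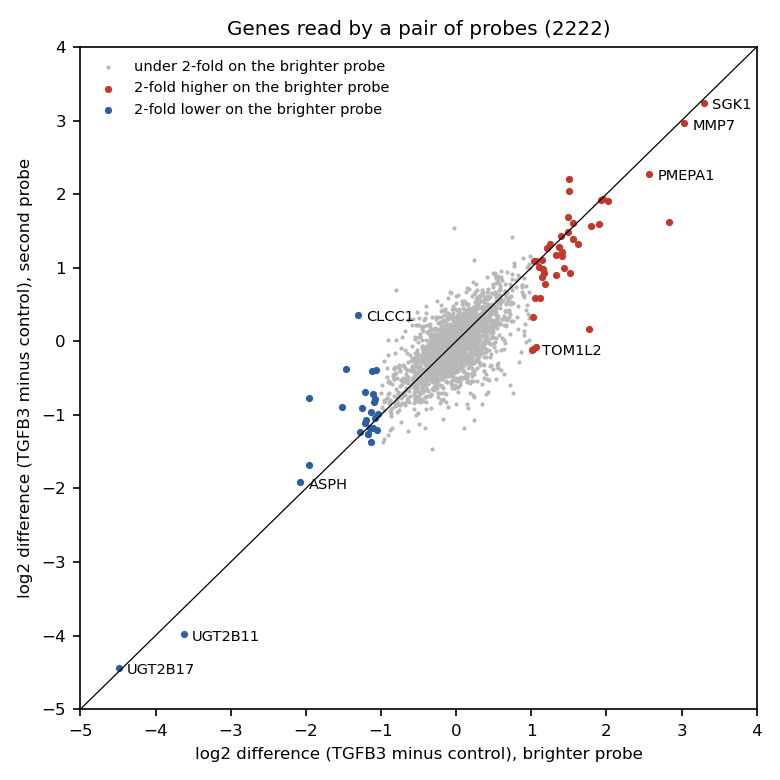
log2 difference (TGFB3 minus LNRII control) on the second probe (vertical axis) against the brighter probe (horizontal axis) for the 2222 genes with a pair of probes detected on both arrays; red and blue points are at least 2-fold higher or lower on the brighter probe, and the line marks equal differences. SGK1, MMP7, PMEPA1, UGT2B17 and UGT2B11 lie near the line, and TOM1L2 and CLCC1 on the other side of 0.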

How the data were processed

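RNA of 5 cultures was measured on 5 Illumina arrays, and the 2 LNRII arrays are compared here. The deposited scanner table holds mean bead intensity values without normalization, as its file headers state, together with a deposited detection p-value per probe and array. GenomeStudio was used, per the submitters' processing notes, and its version and the genome build of the array are not given in the sources used here. A table of the authors' processed intensity values served as an alternative.

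Intensities were background corrected (normexp, offset 16, using the detection p-values), quantile normalized over the 5 arrays and put on a log2 scale with neqc of limma 3.58.1 in R 4.3.3. The resulting log2 values were computed here from the deposited intensities. Figures were drawn with matplotlib 3.10.9, and tables made with numpy 2.4.6 and pandas 2.3.3 under Python 3.11.15. A gene was represented by its member probe with the highest mean over the 2 LNRII arrays. Names came from the platform table, in which 30107 probes have 1 symbol, 8 several and 17191 none. An undetected side was raised to the lowest detected level of its array. The number of arrays limits the precision.

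Genes named were drawn from the 40 largest increases and decreases, up to 8 members of each list with the largest difference, every list member past 2-fold, all members of lists with at most 12 detected, cell type markers and a set of pathway genes, and not all of them are printed. The comparison, the 52 lists and these rules were chosen with earlier results of these data known. Promoter sequences are RefSeq's, build GRCh38.p14. Background correction, offset, scaling, the detection rule, the choice of probe, the floor and the fold counted were varied in 11 alternatives.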

Additional observations from a re-analysis of the deposited data

Results flagged for a closer look

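Probes without a single gene symbol were left out of the comparison. Of 17199 such probes, 3888 were detected on at least 1 LNRII array. At least 2-fold higher with TGFB3 were 33 of them and at least 2-fold lower were 74, with log2 differences between -3.98 and 1.94. Among the 12973 probes with 1 symbol and a difference given, 252 were at least 2-fold higher and 165 at least 2-fold lower. The probes without a symbol stand here because they lie outside the comparison, and their genes are not analysed here.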

How the results depend on the processing

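Against 199 genes higher and 124 lower with TGFB3, leaving out background correction gave 86 and 31, and an offset of 50 gave 119 and 54. All of these were among the genes counted in the report, and both settings shrink differences of dim probes by construction. Without background correction 73.5% of the calls were higher, against 61.6% in the report. A fold of 1.5 gave 703 and 715. The other settings stayed within 1.5 times, from 176 to 243 higher and from 106 to 162 lower. The authors' processed table gave 194 and 119, all shared with the report's. The 170 named genes past 2-fold kept their side of 0 wherever a setting gave them a value (146 of them among genes detected on both arrays), but only 91 stayed past 2-fold without background correction and 123 with an offset of 50. Of the 52 list medians, only that of fatty acid and phospholipid genes changed sign, from 0.01 to -0.03 among genes detected on both arrays. Without background correction all 52 medians moved towards 0, 26 of them by over 1.5 times: serpins and acute phase to 0.17, histones to 0.16, TGF-beta targets to 0.15 and SMADs to 0.12, with G2/M at -0.64, G1/S at -0.39 and UGT2B at -2.76. The AKR1C median was 0.33 with detection p below 0.05, which adds dim members, against 1.48, and that of matrix genes was 0.21. No paired analysis was possible because each group has 1 array. Detection starts at log2 4.72 on the TGFB3 array and 5.03 on the control array, and below these levels a difference is only a bound.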
